A study of Mus musculus with 35 samples.

Results

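The 10 genes described here encode enzymes that modify collagen: the lysyl oxidases Lox, Loxl1, Loxl2, Loxl3 and Loxl4, the lysyl hydroxylases Plod1, Plod2 and Plod3, and the prolyl 4-hydroxylase alpha subunits P4ha1 and P4ha3. They were taken by name, through their Ensembl gene identifiers, from a table of 27012 genes. The list was drawn up with earlier results of these data known. Shares of all genes set beside its counts are therefore a description. All 10 exceeded the minimum mean of 10 normalized counts that left 13695 genes for testing. P4ha3 did so only through the libraries from operated hearts, since its mean stayed under 4 in each sham group.

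Collagen chains are hydroxylated inside the endoplasmic reticulum before they are secreted. Prolyl 4-hydroxylase, a complex of alpha subunits and the beta subunit protein disulfide isomerase (P4hb), makes the hydroxyproline that keeps the triple helix folded at body temperature, and the lysyl hydroxylases make the hydroxylysine that serves glycosylation and stable cross-links. Outside the cell the lysyl oxidases, copper enzymes, oxidise lysine and hydroxylysine side chains of collagen and elastin to aldehydes, which then join neighbouring molecules; in the heart these cross-links are known as a contributor to the stiffness of fibrotic tissue.

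RNA-seq was done on the apex of the heart of mice of mixed C57Bl/6/FVB strain, which had surgery at an age of 6 weeks and were killed on day 3. The operation was transaortic constriction (TAC), a suture that narrows the aorta and loads the left ventricle with pressure, or a sham operation. The WT animals carried floxed IRS2 and no Cre, the IRS1KO animals carried alphaMHC-Cre with floxed IRS1, and the IRS2KO animals carried alphaMHC-Cre with floxed IRS2; each group had 6 libraries, except WT after TAC with 5. IRS1 and IRS2 are the insulin receptor substrates, and the alphaMHC promoter is active in cardiomyocytes, so other heart cells keep both genes; no group carried Cre alone or floxed IRS1 without Cre.

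The 35 libraries held 11707111 to 14609467 reads assigned to genes. Irs1 averaged 233 ± 52.5 normalized counts (SD, n = 6) in WT sham and 25.9 ± 15.1 (SD, n = 6) in IRS1KO sham hearts. Irs2 averaged 217 ± 174 (SD, n = 6) in WT sham and 123 ± 14.4 (SD, n = 6) in IRS2KO sham hearts, a difference that was not called (limma, adjusted p = 1.0). Cardiomyocyte markers were abundant in every library, as the labelled tissue requires, and their sum in WT fell from 878234 to 987301 in sham to 490339 to 859122 after TAC. The tissue was taken whole, so fewer cells of a type and less RNA per cell cannot be told apart. Whether the libraries of a group are different animals is not stated, so p-values measure the spread between libraries.

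All 10 enzymes were higher after TAC than after sham in each of the 3 genotypes (limma on log2 values, Benjamini-Hochberg adjusted p under 0.05 over all 13695 genes; such genes are called below). The share of all tested genes called higher was 28.3% in WT, 32.4% in IRS1KO and 31.3% in IRS2KO. The 10 fell into a group of large and a group of small rises, with the alpha subunits of prolyl 4-hydroxylase divided between them. Lysyl oxidases and P4ha3 rose by more than 2 on the log2 scale in every genotype, which made 6 of the 10 enzymes, against 3.86%, 4.15% and 3.98% of all genes called with such a rise. P4ha3 passed the filter only through the operated hearts, so its place in the counts of this paragraph was favoured by the filter. Lysyl hydroxylases and P4ha1 rose by 0.14 to 1.25. The median over the 10 was 2.28 in WT, 2.33 in IRS1KO and 2.51 in IRS2KO, and the median over all genes tested was -0.01 in each. In 9, 9 and 8 of the 10 every TAC library lay above every sham library of its genotype, while 17.2%, 20.5% and 15.7% of all genes did so.

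**Figure D1:**
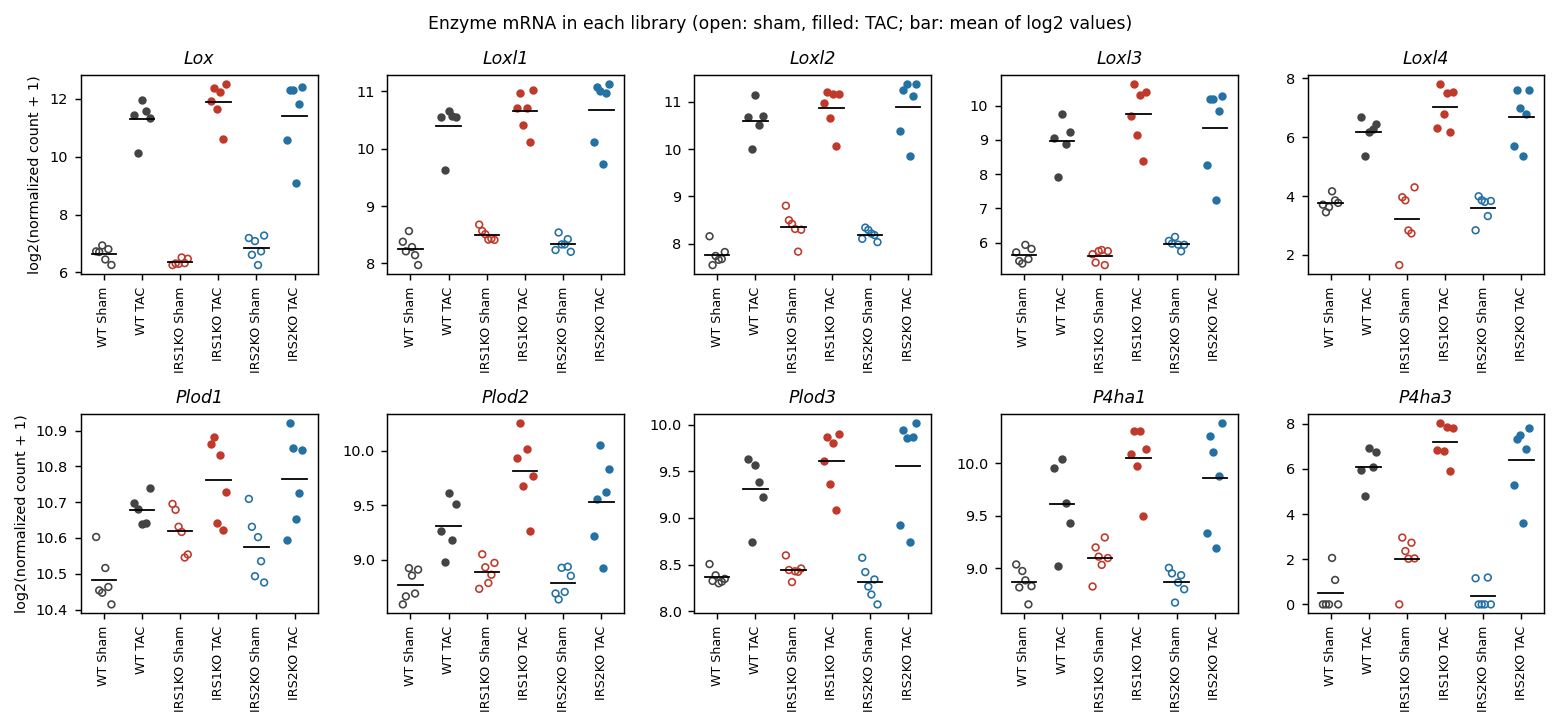
Normalized counts of the 10 enzymes on a log2(value + 1) axis, with 1 point per library, open for sham and filled for TAC, and a bar at the mean of the log2 values of each of the 6 groups. Lysyl oxidases and P4ha3 show separate clouds of sham and TAC points, whereas the Plod1 clouds touch in IRS1KO and IRS2KO.

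Lox (GRCm38 chromosome 18, 52516067 to 52529867, minus strand) encodes the founding lysyl oxidase. Its normalized counts in the 6 WT sham libraries ran from 75.6 to 121 with a median of 104, and in the WT TAC libraries they were 2808, 1112, 3987, 3084 and 2614. Every operated heart was thus far above every sham heart, and the second of those TAC libraries was the lowest. The mean rose from 100 ± 16.7 (SD, n = 6) to 2721 ± 1042 (SD, n = 5), 27.1-fold, or 4.65 on the log2(value + 1) scale (SE 0.40, limma adjusted p = 1.02e-10). In IRS1KO hearts Lox ran from 75.4 to 90.7 in sham (median 78.8) and from 1580 to 5900 after TAC (median 4343). In IRS2KO hearts it ran from 75.5 to 154 in sham (median 120) and from 548 to 5468 after TAC (median 4304). The rises were 50.5-fold in IRS1KO (log2 5.53, SE 0.38) and 29.9-fold in IRS2KO (log2 4.56, SE 0.38). Among the 13695 genes Lox stood 38th, 14th and 43rd by size of rise in WT, IRS1KO and IRS2KO.

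Loxl1 (chromosome 9, 58287738 to 58313186, minus strand), known for its part in elastic fibre assembly, was the most abundant lysyl oxidase in sham hearts. Its WT sham counts ran from 250 to 378 (median 303), and the WT TAC libraries held 1499, 791, 1615, 1518 and 1500. The groups did not overlap, and 4 of the 5 operated hearts lay within a narrow band. The means rose 4.50-fold in WT, 4.55-fold in IRS1KO and 5.35-fold in IRS2KO (log2 2.13, 2.15 and 2.33).

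Loxl2 (chromosome 14, 69609068 to 69695834, plus strand), a member with scavenger receptor domains, ran from 186 to 285 in WT sham (median 208) and held 1634, 1026, 2253, 1447 and 1653 counts in WT TAC libraries. In IRS1KO hearts it went from 227 to 446 in sham to 1074 to 2367 after TAC, and in IRS2KO hearts from 261 to 323 to 922 to 2672. No sham library reached a TAC library. The means rose 7.31-fold, 5.81-fold and 6.96-fold (log2 2.83, SE 0.22; 2.51, SE 0.21; and 2.70, SE 0.21).

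Loxl3 (chromosome 6, 83034173 to 83052562, plus strand) is a close relative of Loxl2. It held 40.8 to 60.1 counts in WT sham (median 48.1) and 537, 243, 868, 470 and 596 in WT TAC libraries. After TAC it reached 335 to 1605 (median 1051) in IRS1KO and 152 to 1254 (median 1045) in IRS2KO, where sham libraries held 39.5 to 54.0 and 52.6 to 70.8. The rise was 11.0-fold in WT, 20.6-fold in IRS1KO and 13.4-fold in IRS2KO (log2 3.34, 4.15 and 3.38, SE 0.38 to 0.40). Loxl3 shares 535 exon bases with Htra2 on the opposite strand; the kit keeps strand, but the sources used here do not give whether the counting used it, so the reads of the pair may not be fully separated. Htra2 averaged 190 normalized counts over all libraries.

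Loxl4 (chromosome 19, 42593982 to 42612813, minus strand) was the scarcest lysyl oxidase, at 9.92 to 16.9 counts in WT sham and 102, 40.3, 70.3, 75.6 and 86.0 in WT TAC libraries. IRS1KO sham libraries held 2.15 to 18.6 and IRS1KO TAC libraries 71.4 to 224, and IRS2KO libraries went from 6.15 to 14.9 up to 39.7 to 194. The means rose 5.90-fold in WT, 13.9-fold in IRS1KO and 10.2-fold in IRS2KO (log2 2.42, 3.79 and 3.06, SE 0.38 to 0.40).

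Lysyl hydroxylases rose less. Plod1 (chromosome 4, 147909753 to 147936767, minus strand) encodes the enzyme for lysines of the triple helix. It had 1364 to 1554 counts in WT sham (median 1406) and 1659, 1639, 1593, 1596 and 1709 in WT TAC libraries, so the groups were apart by a small margin. The rise was 1.15-fold in WT (log2 0.20, SE 0.06, adjusted p = 0.00802), 1.11-fold in IRS1KO (log2 0.14, SE 0.06, adjusted p = 0.0353) and 1.14-fold in IRS2KO (log2 0.19, SE 0.06, adjusted p = 0.00547). In both knockout genotypes only 4 of 6 TAC libraries lay above all sham libraries. The IRS1KO call was kept in 37 of 47 alternatives and lost with no filter (limma adjusted p = 0.0790), quantile normalization (0.0562), only the groups compared (0.0782), edgeR on the recovered reads (0.0677) and without IRS1KO sham replicate 4, 5 or 6 or IRS1KO TAC replicate 1, 2 or 4 (up to 0.0950). Under scaling of libraries to 1 common total the rise of Plod1 was 0.45, 0.45 and 0.53 on the log2 scale in WT, IRS1KO and IRS2KO, where the median of all genes was at 0.24, 0.30 and 0.33.

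Plod2 (chromosome 9, 92542223 to 92608428, plus strand) hydroxylates the telopeptide lysines that feed the most stable cross-links. WT sham libraries held 384 to 484 counts (median 437), and WT TAC libraries 613, 505, 783, 580 and 730. After TAC IRS1KO libraries held 614 to 1220 (median 923) and IRS2KO libraries 484 to 1060 (median 768). Plod2 rose 1.47-fold in WT (log2 0.54, SE 0.15), 1.94-fold in IRS1KO (log2 0.93, SE 0.14) and 1.72-fold in IRS2KO (log2 0.74, SE 0.14). A single operated IRS2KO heart, with 484 counts, fell within the range of its shams, 397 to 489.

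Plod3 (chromosome 5, 136987019 to 136996648, plus strand) also carries the glycosyltransferase activities that decorate hydroxylysine. It held 314 to 362 counts in WT sham (median 322) and 790, 428, 759, 668 and 598 in WT TAC libraries. No groups overlapped in any genotype, and the means rose 1.97-fold, 2.28-fold and 2.51-fold (log2 0.95, 1.16 and 1.25, SE 0.17 to 0.18). Plod3 shares 529 exon bases with Znhit1 on the opposite strand, which averaged 222 over all libraries.

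The alpha subunits P4ha1 and P4ha3 carry the catalytic site of prolyl 4-hydroxylase, and their start regions are shown because one gene was expressed in every sham heart and the other was nearly silent there. The sequences are from RefSeq (GRCm38.p6), 300 bases each, from chr10:59323046-59323345 and chr7:100285270-100285569, both on the plus strand. Capitals mark the only match to ACGTG, one form of the core of the hypoxia response element, on either strand. The form GCGTG was not searched and is not marked.
P4ha1: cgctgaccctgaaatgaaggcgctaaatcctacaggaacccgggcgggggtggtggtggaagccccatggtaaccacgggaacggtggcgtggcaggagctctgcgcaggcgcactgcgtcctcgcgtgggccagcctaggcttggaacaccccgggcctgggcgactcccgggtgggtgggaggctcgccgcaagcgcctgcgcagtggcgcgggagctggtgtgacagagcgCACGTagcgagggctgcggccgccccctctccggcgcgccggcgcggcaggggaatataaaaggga
P4ha3: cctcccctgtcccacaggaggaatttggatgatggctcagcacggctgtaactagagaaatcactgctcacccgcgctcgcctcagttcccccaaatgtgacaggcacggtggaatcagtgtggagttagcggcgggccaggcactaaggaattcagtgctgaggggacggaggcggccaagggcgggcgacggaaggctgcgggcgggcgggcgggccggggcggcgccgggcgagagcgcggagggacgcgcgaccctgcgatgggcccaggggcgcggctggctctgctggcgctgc
ACGTG was found in 19.6% of 32851 start regions of this length and in 2 of the 5 that matched the enzymes by symbol (P4ha1 and Plod3; Plod1, Loxl4 and P4ha3 were the others). TGANTCA, the AP-1 motif, was found in 7.81% of start regions and GGAATG, the TEAD motif, in 14.7%, on either strand; neither is in the 5, and none of the 3 motifs contains another. The G and C content was 70.3% for P4ha1 and 69.3% for P4ha3.

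P4ha1 (chromosome 10, 59323296 to 59373304, plus strand) held 403 to 525 counts in WT sham (median 463) and 993, 518, 1050, 785 and 687 in WT TAC libraries. The operated heart with 518 fell inside the sham range, and the other 4 lay above it. In IRS1KO hearts P4ha1 went from 453 to 627 in sham to 722 to 1268 after TAC, and in IRS2KO hearts from 408 to 513 to 586 to 1334, without overlap. It rose 1.72-fold in WT (log2 0.74, SE 0.17), 1.97-fold in IRS1KO (log2 0.96, SE 0.17) and 2.07-fold in IRS2KO (log2 0.99, SE 0.17).

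P4ha3 (chromosome 7, 100285520 to 100319699, plus strand) was near zero in sham hearts. The 6 WT sham libraries together held 4 reads of it, in 2 libraries, among 80718034 reads, and the 6 IRS2KO sham libraries held 2 reads among 75837371. After TAC the WT libraries held 61.1, 26.9, 122, 66.4 and 107 normalized counts, the IRS1KO libraries 59.5 to 262 (median 167) and the IRS2KO libraries 11.2 to 225 (median 139). Every operated heart thus expressed P4ha3 above every sham heart of its genotype, the lowest with 11 reads. Pooled over libraries, the ratio of TAC to sham was 108 in WT (exact 95% interval 42.0 to 399), 45.6 in IRS1KO (30.0 to 73.1) and 338 in IRS2KO (93.2 to 2793). These intervals cover counting error only. Of the 4 WT sham reads 3 came from WT sham replicate 4, and without that library the WT ratio was 359 (64.1 to 14227). Fitted log2 changes were 5.58, 5.19 and 6.01 (SE 0.57 to 0.59) and depend on the pseudocount of 1, and they ranked 7th, 21st and 5th of 13695. The filter, which P4ha3 passed only through the operated hearts, favoured these ranks.

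The remaining subunits of the enzyme behaved unequally. P4hb, the beta subunit, rose 2.26-fold, 2.71-fold and 2.54-fold (log2 1.15, 1.42 and 1.28). P4ha2, the third alpha subunit, averaged 504 ± 65.9 (SD, n = 6) in WT sham and 552 ± 54.6 (SD, n = 5) after TAC, which was not called (limma adjusted p = 0.368), and it was called higher in IRS1KO (log2 0.41, SE 0.12, adjusted p = 0.00302). The P4ha2 response did not differ between genotypes past the threshold (IRS1KO minus IRS2KO 0.36, SE 0.17, limma adjusted p = 0.403; IRS1KO minus WT 0.28, SE 0.17, limma adjusted p = 0.643).

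**Figure D2:**
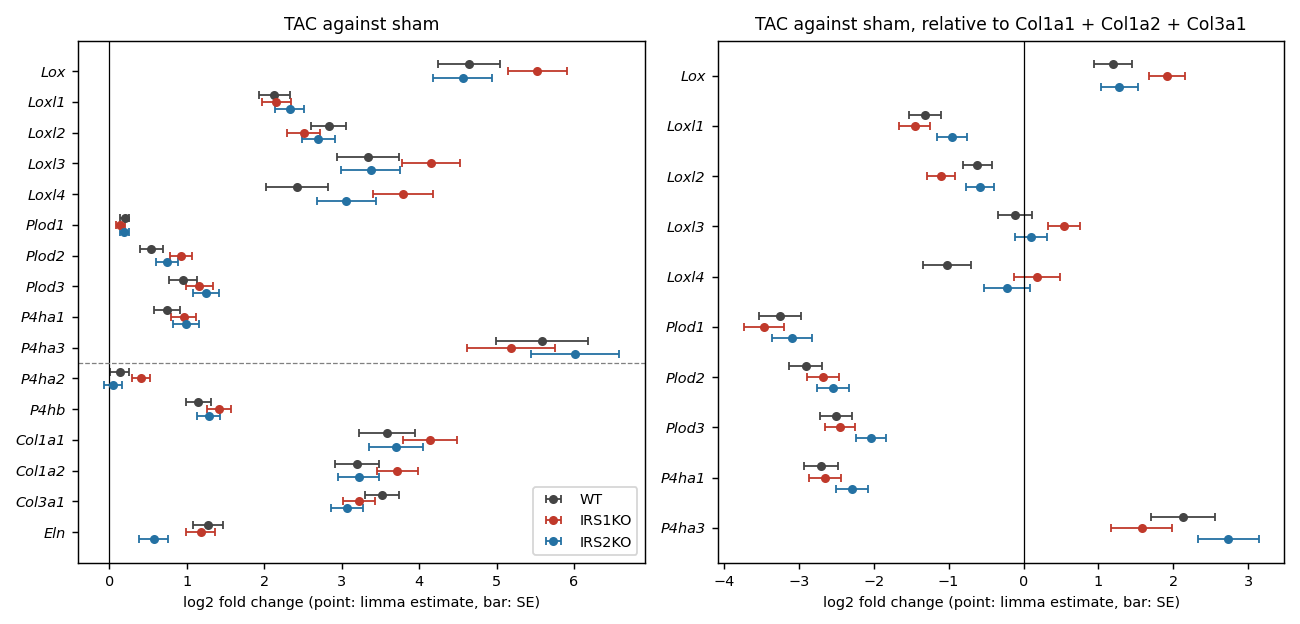
Log2 fold change of TAC against sham (x axis; point, limma estimate; bar, SE) in WT, IRS1KO and IRS2KO; at left on normalized counts for the 10 enzymes and, under the dashed line, P4ha2, P4hb and 4 substrate genes, at right for the 10 enzymes alone, relative to the summed counts of Col1a1, Col1a2 and Col3a1. The 10 enzymes of each genotype lie right of zero at left, while at right Lox and P4ha3 lie right of zero in all 3 genotypes and Plod1 is the lowest of the 10, at -3.09 to -3.47.

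Levels were compared between genes only per kb of exon, with the length taken over all annotated exons of a gene. The lengths of the transcripts present were not measured, so the order of genes, family sums and shares depend on the annotation. In WT sham hearts Plod1 was the highest of the 10 at 212 ± 10.1 normalized counts per kb (SD, n = 6), followed by P4ha1 at 114, Loxl1 at 93.4, Plod2 at 81.2 and Plod3 at 72.7. The neighbours from P4ha1 to Plod3 overlapped between libraries, and below them Loxl2 (40.6), Lox (21.0), Loxl3 (10.7), Loxl4 (3.01) and P4ha3 (0.228) were each separate from the next. After TAC the WT order began with Lox at 570 ± 218 (SD, n = 5), Loxl1 at 420 and Loxl2 at 297, ahead of Plod1 at 242 and P4ha1 at 196. In that group every pair of neighbours overlapped except Loxl3 (118) and P4ha3 (24.4), so the order within the top of the list is not resolved.

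The families changed places as a result. Summed lysyl oxidase level in WT went from 148 to 191 per kb in sham to 725 to 1946 after TAC, while summed lysyl hydroxylase level went from 353 to 381 up to 431 to 549. In each WT sham library the lysyl oxidase sum was thus under the lysyl hydroxylase sum, and in each WT TAC library it was above it. The alpha subunits together, P4ha2 included, went from 172 to 214 up to 228 to 389. IRS1KO lysyl oxidase sums went from 173 to 233 up to 957 to 2625, and those of IRS2KO from 184 to 210 up to 585 to 2636.

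Within the lysyl oxidases the share of Lox went from 12.5% ± 1.63 (SD, n = 6) to 39.1% ± 4.54 (SD, n = 5) of the family sum in WT. It went from 8.55% to 42.8% in IRS1KO and from 12.9% to 36.6% in IRS2KO, and the lowest operated heart, at 19.6% in IRS2KO, still lay above the highest IRS2KO sham heart at 17.4%. Loxl1 went down from 55.2% to 30.2% in WT, 54.6% to 26.5% in IRS1KO and 50.8% to 31.1% in IRS2KO. Plod1 went from 57.9% to 48.3% of the lysyl hydroxylase sum in WT, where the libraries overlapped, and Plod3 went from 19.9% to 28.2%, while Plod2 was at 22.2% and 23.5%, with overlapping libraries. In IRS1KO the Plod2 share went from 19.2% to 23.7% in sham libraries up to 24.4% to 31.8% after TAC, without overlap, and in IRS2KO its means were 21.8% and 24.4%, with overlap; the shares were not tested. P4ha3 made up 0.123% of the alpha subunit sum in WT sham and 7.73% ± 3.37 (SD, n = 5) after TAC, with 12.1% in IRS1KO and 9.42% in IRS2KO after TAC.

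**Figure D3:**
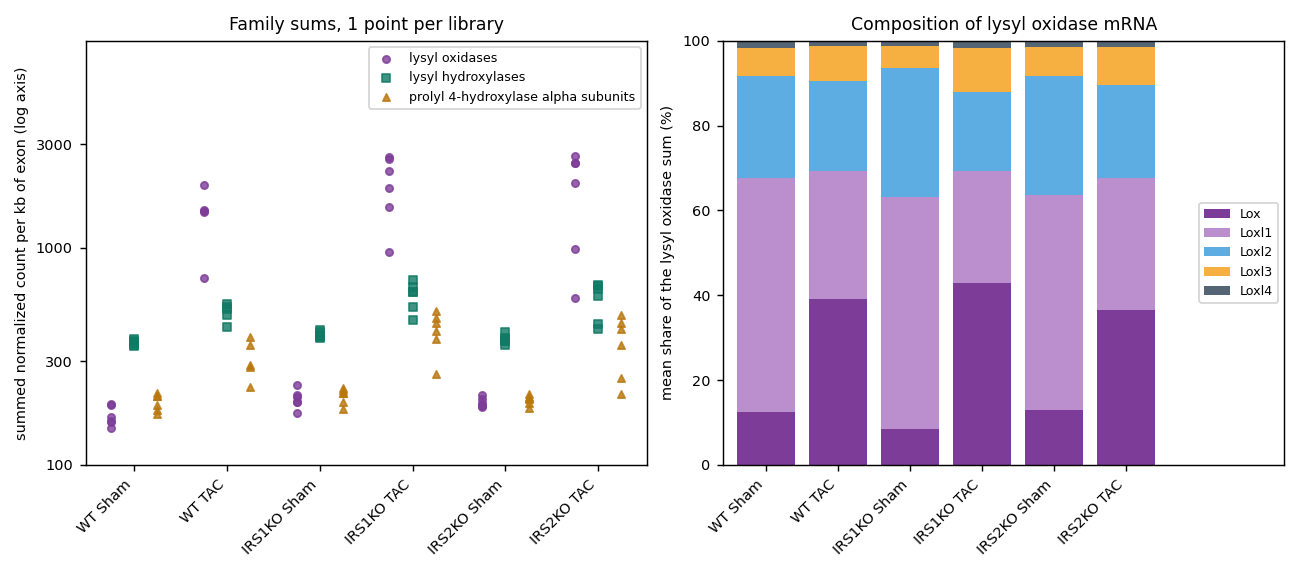
Left, summed normalized counts per kb of exon (log axis) of lysyl oxidases, lysyl hydroxylases and prolyl 4-hydroxylase alpha subunits, with 1 point per library in each of the 6 groups. Right, mean share of each lysyl oxidase in the family sum (stacked bars, %), in which Lox grows from 12.5% to 39.1% in WT.

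The substrates of these enzymes rose as well. In WT, Col1a1 went from 1111 to 14839 normalized counts (13.4-fold), Col3a1 11.8-fold, Col1a2 9.83-fold and Col5a2 9.52-fold, whereas elastin (Eln) rose 2.54-fold. Of 9 tested genes for fibrillar collagens and elastin, 8 rose and 1 fell in each genotype, and of 10 tested network-forming and basement membrane collagens 8 rose, among them Col8a1 (7.14-fold in WT) and Col15a1 (3.72-fold). The enzymes were therefore also fitted relative to the sum of Col1a1, Col1a2 and Col3a1 in the same library.

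Relative to these collagens only Lox and P4ha3 were called higher after TAC in all 3 genotypes. Lox gained 1.20 on the log2 scale in WT (SE 0.25), 1.92 in IRS1KO and 1.28 in IRS2KO, and P4ha3 gained 2.13, 1.58 and 2.73. The P4ha3 gains depended on the pseudocount: with 5 in place of 1 they were 0.26 in WT (limma adjusted p = 0.342), 0.55 in IRS1KO and 0.81 in IRS2KO, the last 2 still called. Loxl3 was called higher in IRS1KO (0.54, SE 0.21, adjusted p = 0.0147) and was at -0.11 in WT and 0.09 in IRS2KO, neither called; the IRS1KO call was lost with Col1a1 alone as the reference (0.01, adjusted p = 0.958), with quantile normalization and without IRS1KO sham replicate 2 (adjusted p = 0.0507), and held under the other 44 of 47 alternatives. In all, 2, 3 and 2 of the 10 were called higher in WT, IRS1KO and IRS2KO, against 0.475%, 0.504% and 0.657% of all genes. Each of these counts includes P4ha3, which passed the filter only through the operated hearts.

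Other enzymes rose less than the collagens. Loxl1 was at -1.32, -1.46 and -0.95 on the log2 scale in WT, IRS1KO and IRS2KO, and Loxl2 was at -0.62, -1.10 and -0.59. Loxl4 was called lower in WT (-1.02) and was at 0.18 in IRS1KO and -0.22 in IRS2KO, not called; the IRS2KO value was called lower with a pseudocount of 5 (-0.57, adjusted p = 0.0303) and with quantile normalization (-0.73, adjusted p = 0.0383). Lysyl hydroxylases and P4ha1 were lower by far more, at -2.03 to -3.47. The 7, 6 and 6 enzymes called lower stand against 98.2%, 98.3% and 97.8% of all genes called lower on this scale, so that count is the background of the reference itself.

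Genes that work beside the 10 enzymes in collagen maturation mostly rose. Of 31 tested, 23 rose and 3 fell in WT, 25 rose and 4 fell in IRS1KO, and 24 rose and 4 fell in IRS2KO, with medians of 1.05, 1.31 and 1.08 on the log2 scale against -0.01 over all genes. Postn, the matricellular protein periostin and also a marker of activated fibroblasts, led with 454 counts in WT sham and 14064 after TAC (31.0-fold). Fibronectin (Fn1) rose 10.3-fold, Efemp2, the fibulin that helps Lox reach elastin, 4.56-fold, and the procollagen N-proteinase Adamts2 3.68-fold in WT. Fmod, a small collagen-binding proteoglycan, rose 21.1-fold in IRS1KO and 12.9-fold in IRS2KO. The rule for naming genes did not select Fmod in WT, and no difference between genotypes is drawn from these values.

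**Figure D4:**
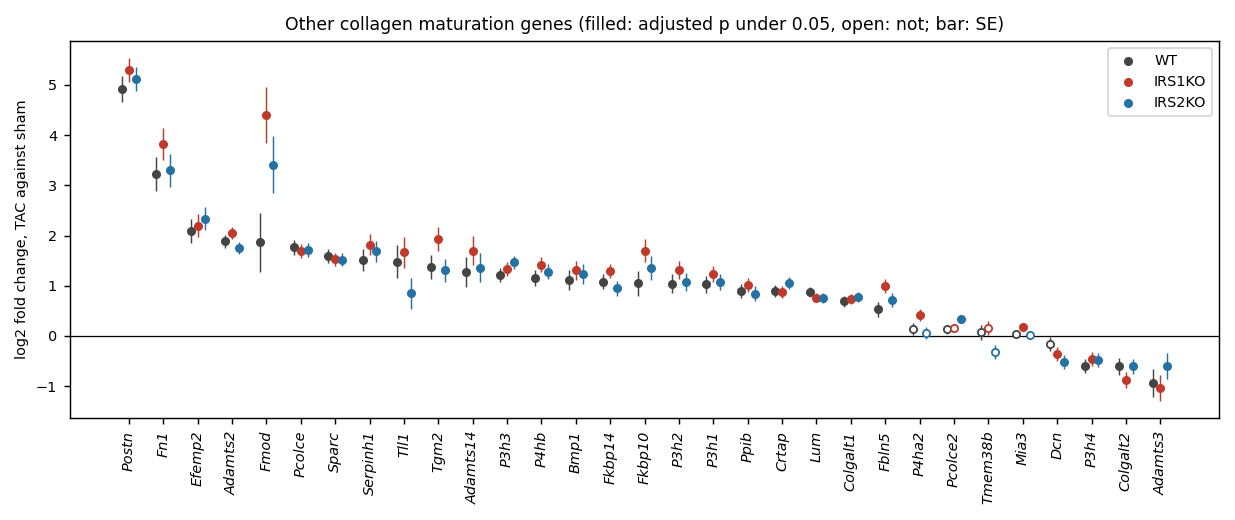
Log2 fold change of TAC against sham (y axis; bar, SE) of 31 other collagen maturation genes in WT, IRS1KO and IRS2KO, ordered by the WT value, filled where adjusted p is under 0.05. Postn is highest in each genotype, and 23, 25 and 24 genes are called higher.

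Other hydroxylases that use the same cofactors, iron and 2-oxoglutarate, did not share the rise. Of 10 tested, 0 rose and 7 fell in WT, 1 rose and 6 fell in IRS1KO, and 1 rose and 8 fell in IRS2KO. P4htm, a transmembrane prolyl hydroxylase, fell to 0.497 of its WT sham mean, and Phyh, the peroxisomal phytanoyl-CoA hydroxylase, to 0.573. Genes known to be induced by hypoxia, which include targets of the factor that also acts on P4ha1, Plod2 and Lox, were split, with 5 of 15 higher and 5 lower in WT, 6 and 4 in IRS1KO, and 5 and 7 in IRS2KO. Of all 13695 genes, 3877 were called higher and 3638 lower in WT, 4442 and 4335 in IRS1KO, and 4286 and 4260 in IRS2KO. In WT the numbers higher and lower were near each other for the hypoxia-induced genes and for all genes. In IRS2KO more of the hypoxia-induced genes were lower than higher. The glucose transporter Slc2a1 rose 2.03-fold in WT and the oxygen sensor Egln1 fell to 0.513. Genes responsive to TGF-beta rose in 11 of 11 in WT and 10 of 11 in each knockout, with Ltbp2 at 29.8-fold, Tgfb2 at 5.38-fold and Ccn2 at 4.88-fold in WT. The part of hypoxia and of TGF-beta in the rise of the enzymes was not tested.

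Marker genes of other cells moved with the operation. Of 6 activated fibroblast markers 6 rose in WT, 5 in IRS1KO and 6 in IRS2KO, and their sum in WT went from 2265 to 3168 in sham up to 13501 to 29980 after TAC. All 8 macrophage markers rose in each genotype, with WT sums of 3244 to 3997 in sham and 8180 to 21170 after TAC. Of 9 fibroblast markers 6, 5 and 5 rose and 1, 2 and 2 fell, with WT sums of 27429 to 31580 and 53214 to 98285; 3 of the 9 are the collagens named above, and Gsn fell to 0.391 in WT. Endothelial markers fell in 6 of 7 in WT and 7 of 7 in each knockout, and cardiomyocyte markers fell in 7, 6 and 7 of 8. Among all 13695 genes, 3638, 4335 and 4260 were called lower in WT, IRS1KO and IRS2KO. Smooth muscle and pericyte markers were split, with 2 higher and 4 lower of 7 in each genotype, and 0 of 3 tested mesothelial markers were called. No marker was at 0 in a whole group, and the part of these markers in the rise of the enzymes was not tested.

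Operated hearts varied among themselves in the enzymes together. In 12 of the 17 TAC libraries all 10 enzymes lay above every sham library of the genotype, and in the other 5 at least 8 did. The share of all genes above every sham library was not counted for single TAC libraries, so these numbers are a description. WT TAC replicate 2 was the lowest of its group for 9 of 10 enzymes, IRS1KO TAC replicate 5 for 10 of 10 and IRS2KO TAC replicate 4 for 9 of 10. These 3 libraries were also the nearest of their groups to sham over all tested genes, at root-mean-square log2 distances of 0.542, 0.720 and 0.550, with the other TAC libraries at 0.695 to 1.21 and the sham libraries at 0.259 to 0.401. Without the 3 TAC libraries nearest to sham of all, which include IRS2KO TAC replicate 1 in place of the IRS1KO library, all 10 enzymes were still called in each genotype, and Lox rose 31.1-fold in WT and 40.4-fold in IRS2KO.

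**Figure D5:**
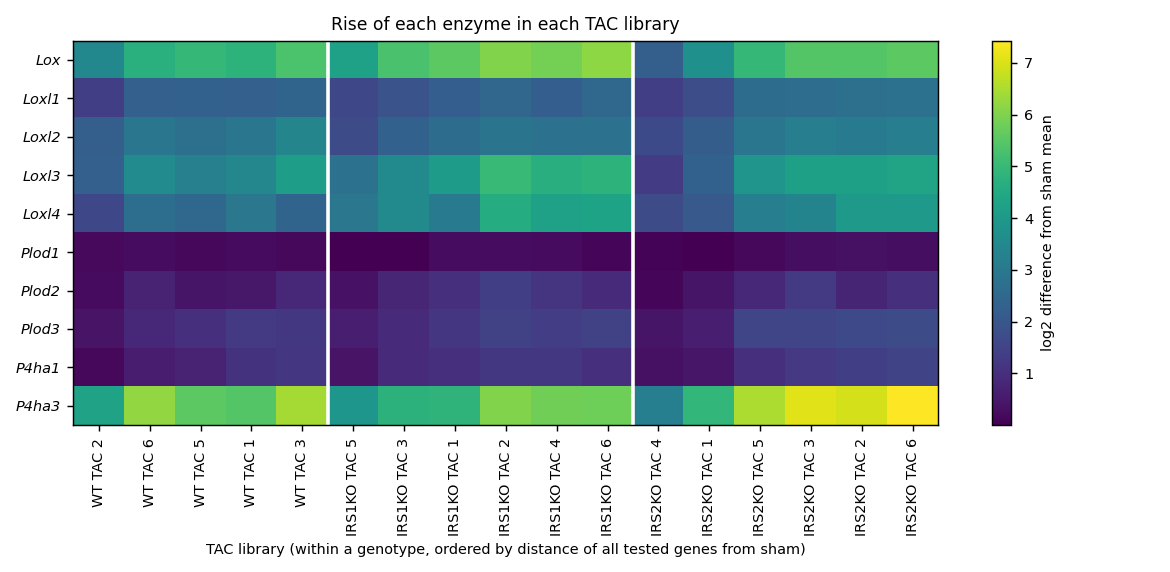
Log2 difference of each TAC library from the mean of the sham libraries of its genotype (colour) for the 10 enzymes (rows), with libraries ordered within each genotype by their distance from sham over all tested genes. Leftmost libraries of each genotype are the darkest in nearly every row, and the Plod1 row stays near zero throughout.

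Across the 17 TAC libraries, each centred on its group mean, the 45 pairs of enzymes had Pearson correlations of 0.65 to 0.99 with a median of 0.91. These libraries share the difference in distance from sham just described, so the values are a description. Loxl2 and Loxl3 were the closest pair at 0.99, and pairs with Plod1 were the weakest at 0.65 to 0.73. Among 9128 other genes, those most like Loxl2 were Srpx2, Sh3pxd2b and Col5a1 (0.98 to 0.99), and those most like Loxl3 were Srpx2, Col5a2 and Col5a1. Plod2 was most like Postn (0.96), Mxra7 and Col8a1, and P4ha3 like Col5a2 (0.98), Col12a1 and Ltbp2. Plod3 was most like Litaf, Sec61a1 and Rpn2 (0.98 to 0.99), of which the last 2 serve protein entry and glycosylation in the endoplasmic reticulum, and P4ha1 like Rai14, Ganab and Vcam1. Lox was most like Zyx, Adam9 and Pabpc1 (each 0.98), Loxl1 like S100a11, Kdelr3 and Cdr2l, Loxl4 like Actn4, Arhgap23 and Lmf2, and Plod1 like Rras (0.89), Cttnbp2nl and Lmo4.

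Whether genotype changed the response was tested as the difference between genotypes in the TAC effect. Against WT, which carried no Cre, that difference joins loss of the gene with alphaMHC-Cre. For none of the 10 enzymes was a difference called with limma, edgeR or DESeq2 in any of the 3 pairs of genotypes, which share groups with each other. Of all genes, 0.11%, 0.0% and 0.409% were called by limma for IRS1KO minus WT, IRS2KO minus WT and IRS1KO minus IRS2KO. At an unadjusted p under 0.05 the enzymes numbered 1, 0 and 0 of 10, against 8.88%, 5.21% and 11.4% of all genes. The largest difference was that of Loxl4, 1.37 on the log2 scale between IRS1KO and WT (SE 0.56, limma adjusted p = 0.485). For Lox the difference was 0.88 between IRS1KO and WT (SE 0.55, limma adjusted p = 0.648) and -0.09 between IRS2KO and WT (SE 0.55, limma adjusted p = 0.992), so differences of about that size were within the error. Plod1 and Loxl1 were measured more finely, at -0.05 (SE 0.09) and 0.02 (SE 0.27) between IRS1KO and WT.

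Among operated hearts Plod2 was the single enzyme called between genotypes. It averaged 921 ± 206 (SD, n = 6) in IRS1KO and 642 ± 113 (SD, n = 5) in WT (log2 0.51, SE 0.15, limma adjusted p = 0.0432), with overlapping libraries, and 4.7% of all genes were called in that comparison. Its adjusted p was 0.056 without the filter on low values and 0.177 with only the groups compared, and leaving out single libraries gave 0.00629 to 0.161, with the call lost without WT TAC replicate 1, 2 or 5 or IRS1KO TAC replicate 1, 2, 4 or 6. The 10 enzymes varied together among operated hearts, so a shared direction is not 10 separate results. The share of all genes with higher fitted values was not counted. After TAC all 10 enzymes had higher fitted values in IRS1KO than in WT, at 0.08 to 1.10. The same held for IRS2KO against WT, at 0.09 to 0.48 for all 10 enzymes. None was called for IRS2KO against WT (0.0% of all genes) or IRS1KO against IRS2KO (2.36%) by limma, edgeR or DESeq2, and 0 and 0 had an unadjusted p under 0.05, against 6.8% and 12.3% of all genes.

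In sham hearts limma called 0 of 10 enzymes in each comparison of genotypes, where 4.65% of all genes were called for IRS1KO against WT, 0.0% for IRS2KO against WT and 8.3% for IRS1KO against IRS2KO. At an unadjusted p under 0.05 the counts were 3, 0 and 1 of 10, against 16.1%, 3.9% and 21.4% of all genes; edgeR called 0 in each, and DESeq2 called 0, 0 and 1. Loxl2 averaged 334 ± 71.3 (SD, n = 6) in IRS1KO and 219 ± 34.7 (SD, n = 6) in WT, with overlapping libraries (log2 0.59, SE 0.21, limma adjusted p = 0.120). That value was called with only the groups compared (adjusted p = 0.0098) and with library weights (adjusted p = 0.00148), and in 3 of 47 alternatives in all, whose adjusted p ran from 0.00148 to 0.258.

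P4ha3 had 22 reads in 5 of 6 IRS1KO sham libraries, against 4 reads in WT and 2 in IRS2KO. The ratio of IRS1KO to WT was 5.33 (exact 95% interval 1.81 to 21.3), or 17.7 (2.86 to 730) without WT sham replicate 4, and that of IRS1KO to IRS2KO 9.90 (2.43 to 86.8), for counting error only, and over libraries neither was called (log2 1.50, SE 0.57, limma adjusted p = 0.147; log2 1.63, limma adjusted p = 0.0708). The second was called by DESeq2 (adjusted p = 0.0320) and without IRS1KO sham replicate 1, the library with no read (adjusted p = 0.0197), and in 7 of 47 alternatives in all, whose adjusted p ran from 0.000459 to 0.414. Relative to the 3 collagens P4ha3 was called higher in IRS1KO than in IRS2KO sham hearts (log2 1.80, SE 0.41, limma adjusted p = 0.00983), where 1.22% of all genes were called; the call was lost with a pseudocount of 5 (adjusted p = 0.176) and with quantile normalization (adjusted p = 0.0966). Acta2, a marker of activated fibroblasts and smooth muscle, was 2.81-fold higher in IRS1KO than in WT sham hearts, the only one of 6 activated fibroblast markers called there. The sum of 8 smooth muscle and pericyte markers, without Acta2, overlapped, at 41031 to 44191 in IRS1KO sham and 40009 to 42532 in WT sham. Within 1 megabase of P4ha3, a window chosen after its values were seen, 6 of 31 tested genes (19.4%) were called between IRS1KO and WT sham hearts, 1 higher and 5 lower in IRS1KO, and 9 (29.0%) between IRS1KO and IRS2KO, 3 higher and 6 lower. Between IRS2KO and WT limma called 0 of the 31. The part of Acta2-expressing cells and of the chromosomal region in the P4ha3 reads was not tested.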

How the data were processed

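The authors deposited normalized gene-level signal values made from libraries prepared with a stranded mRNA kit per the labels' protocols. HISAT2 2.0.6, HTSeq 0.7.1, DESeq2 and GRCm38 are named in the submitters' processing notes. Each column held whole multiples of 1 read (100.0% of values within 0.001), so reads were recovered for the count tests with edgeR 4.0.16 and DESeq2 1.42.0. The main test was limma 3.58.1 in R 4.3.3 on log2(value + 1) for genes with a mean of at least 10, all 6 groups in 1 fit, with trended, robust empirical Bayes variance. Values relative to collagen had the log2 sum of Col1a1, Col1a2 and Col3a1 subtracted. Scripts were tested on simulated data. Exon lengths and positions came from GENCODE on GRCm38 for 26886 genes, and the sources used here do not state strand use in counting. Of other gene lists, the up to 4 called genes of largest change were named if the higher group averaged 100 or more, besides single genes fixed by name, and for each enzyme the 3 likest genes. The enzymes and lists were chosen with earlier results of these data known. Alternatives were other pseudocounts (0.5 and 5), filters (none and 50), scalings, fits and left-out libraries.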

Additional observations from a re-analysis of the deposited data

Results flagged for a closer look

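Of 60 groups of 5 or 6 values tested for a library far from the rest, 2 were marked, where chance marks about 1 in 20. Loxl1 in WT TAC replicate 2 was 791, and the other 4 WT TAC libraries were at 1499 to 1615. P4ha3 in WT sham replicate 4 was 3.16 normalized counts, and the other 5 WT sham libraries were at 0 to 1.12; that value is 3 reads.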

How the results depend on the processing

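Counts of called enzymes after TAC stayed within 1.5 times the reported count in WT, IRS1KO and IRS2KO under all 47 alternatives. The replicate block gave 10, 10 and 10 called enzymes after TAC and changed no count of called enzymes in the other comparisons. Same-numbered libraries had correlations of -0.60 to 0.57, with a median of 0.088 against -0.024 for other numbers. Of these 85 pairs 38 were over 0.1, and 15 of 35 libraries correlated best with their own number. The main fit did not treat the numbers as pairs, so any structure shared by number stayed in its error. Between genotypes in sham, IRS1KO against WT gave 1 called enzyme with only the groups compared, 2 with library weights and 2 without the 3 TAC libraries nearest to sham, an alternative chosen after seeing the data, and IRS2KO against WT gave 1 with only the groups compared. IRS1KO against IRS2KO gave 1 with a pseudocount of 0.5, 2 with only the groups compared, 1 with library weights, 1 with DESeq2 and 1 without those 3 libraries. After TAC, IRS1KO against WT gave 0 without a filter, 0 with only the groups compared and 3 with library weights, and IRS2KO against WT gave 2 (Loxl1 0.46 and Plod3 0.47 on the log2 scale) without those 3 libraries. They were WT TAC replicate 2 and IRS2KO TAC replicates 1 and 4, so more low libraries were taken from IRS2KO than from WT. Leaving out single libraries gave 0 to 1 for IRS1KO against WT and for IRS1KO against IRS2KO in sham, and 0 to 2 for IRS1KO against WT after TAC. For these comparisons of genotypes the share of all genes called under each alternative is not given here. The counts therefore do not set the enzymes apart from other genes. Relative to collagen, Loxl3 in IRS2KO turned to -0.29 with quantile normalization, -0.33 with Col1a1 alone and -0.013 without IRS2KO TAC replicate 2, with single libraries left out giving -0.013 to 0.23; without the 3 TAC libraries nearest to sham it was 0.41 and called (limma adjusted p = 0.0427). Loxl4 in IRS1KO turned to -0.34 with a pseudocount of 5, -0.34 with quantile normalization, -0.044 with library weights, -0.35 with Col1a1 alone and -0.13 without IRS1KO sham replicate 1, with single libraries left out giving -0.13 to 0.38. The cause of these changes was not tested. Scaling to the same total made 79.7%, 76.8% and 79.7% of calls over all genes higher in WT, IRS1KO and IRS2KO, against 51.6%, 50.6% and 50.2% as deposited. Depth limits P4ha3 and Loxl4, with 2 to 71 reads per sham group.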
